A study of Mus musculus with 9 samples.

Results

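The transcripts described here are the 10 messenger RNAs mt-Nd1, mt-Nd2, mt-Nd3, mt-Nd4, mt-Nd5, mt-Cytb, mt-Co1, mt-Co2, mt-Co3 and mt-Atp6, which are read from mitochondrial DNA rather than from the chromosomes of the nucleus. They were taken by symbol from a table of raw read counts that lists 55011 genes, and all 10 were present in it. The cells were naive CD8 T cells from the spleen of wild-type mice (genotype WT), activated for 6 h on plate-bound antibodies against CD3 and CD28 at 4 µg/mL. One group of 3 libraries received no compound (control), 3 received 20 mM D-2HG and 3 received 20 mM L-2HG, each added together with the stimulus, so that activation is common to all 9 libraries. The compounds are enantiomers of 2-hydroxyglutarate, a small acid made from the Krebs cycle intermediate 2-oxoglutarate, and they differ in the configuration of the carbon that bears the hydroxyl group. Neither the age of the mice nor whether the libraries of a group came from separate animals is given in the sources used here, so the p-values measure only the spread between these libraries.

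Mitochondrial DNA encodes a handful of core subunits of the respiratory chain, while the remaining subunits are encoded in the nucleus and imported. The mt-Nd genes encode subunits of complex I, the NADH dehydrogenase that feeds electrons into the chain. mt-Cytb encodes the cytochrome b of complex III, the mt-Co genes encode the catalytic core of complex IV, cytochrome c oxidase, and mt-Atp6 encodes a membrane subunit of complex V, the ATP synthase. Each strand is copied into a long precursor RNA by the polymerase POLRMT with the factors TFAM and TFB2M, transfer RNAs are cut out between the messages, and most messages then receive a short poly(A) tail. An activated T cell is known to enlarge its mitochondria and remodel its respiratory chain as it leaves rest. On the annotation of mouse build mm10 the mitochondrial chromosome carries 13 protein-coding genes, 22 transfer RNA genes and 2 ribosomal RNA genes, and the count table holds the first 2 of these classes. The ribosomal RNAs were not analysed here.

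The ends of the messages bear on the measurement, because the cDNA was primed with an anchored oligo(dT) primer and therefore depends on a poly(A) tail. Of the 13 protein-coding genes, 8 end in TAA, 2 end in TAG, and mt-Nd4, mt-Cytb and mt-Co3 end in a single T that becomes a stop codon when the tail is added. The last 30 bases of the 3 most abundant messages are shown to make this visible, on the plus strand of mm10, with the encoded bases of the stop in capitals (GENCODE M21 transcripts). mt-Nd1 ends at chrM:3678-3707, mt-Cytb at chrM:15259-15288 and mt-Co1 at chrM:6843-6872.
mt-Nd1: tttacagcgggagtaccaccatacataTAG
mt-Cytb: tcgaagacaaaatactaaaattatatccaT
mt-Co1: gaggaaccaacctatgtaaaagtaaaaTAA

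Several of these genes also have near-identical copies in the nuclear genome, and this sets how far their counts can be read. Every 50-base window of each gene was searched for in all other annotated transcripts. Genome sequence outside annotated transcripts was not searched, so copies there would be missed. No window of mt-Nd1 or mt-Cytb was found in another annotated transcript, and 7.61% of the windows of mt-Nd5 and 8.19% of those of mt-Nd2 were. The share was 51.1% for mt-Co1 and 62.2% for mt-Nd4, and it was 98.0% for mt-Nd3, 99.5% for mt-Atp6, 99.9% for mt-Co3 and 100% for mt-Co2. Most of the copies lie side by side on the minus strand of chromosome 1 of mm10, where the unprocessed pseudogenes Gm28439, Gm28438, Gm28437, Gm10925, Gm28661 and Gm29216 match mt-Nd4, mt-Nd3, mt-Co3, mt-Atp6, mt-Co2 and mt-Co1 in turn. Over the annotated length of the pseudogene, Gm28661 (681 bases), Gm28437 (783 bases), Gm10925 (678 bases) and Gm28439 (876 bases) did not differ from their mitochondrial partner at any base.

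Those of the pseudogenes named above that do differ are shown with the differing bases in capitals. The window of mt-Nd3 is chrM:9459-9499 on the plus strand, and its copy Gm28438 (chr1:24612775-24613119, minus strand) differs at 1 base of 345, T3C, counted from the first base of mt-Nd3 with the mitochondrial base first. The window of mt-Co1 is chrM:6381-6421, and its copy Gm29216 (chr1:24615706-24616197, minus strand) differs at 6 bases of 492, which are T1056A, C1057T, A1059G, A1060G, C1062A and A1066T, counted from the first base of mt-Co1.
mt-Nd3: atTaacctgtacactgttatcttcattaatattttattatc
Gm28438: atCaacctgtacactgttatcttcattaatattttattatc
mt-Co1: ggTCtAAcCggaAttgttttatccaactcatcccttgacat
Gm29216: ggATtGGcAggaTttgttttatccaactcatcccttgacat

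The counts fell into 2 classes along the same line. mt-Co2, mt-Atp6, mt-Nd3 and mt-Co3, the genes with nearly all windows shared, had 399, 361, 239 and 183 counts over the 9 libraries, whereas the other 6 genes had between 14071 (mt-Nd2) and 233937 (mt-Nd1). In control replicate 1 the pseudogenes of mt-Atp6, mt-Co2 and mt-Co3 received counts of the same order as these genes. Gm10925 had 129 beside 98 for mt-Atp6, Gm28661 68 beside 103 for mt-Co2, and Gm28437 54 beside 50 for mt-Co3. The copy of mt-Nd3, Gm28438, received fewer, with 7 beside 73. How reads that match several places were counted is not given in the sources used here. The levels of these 4 genes, and how their reads are split with the pseudogenes, are therefore uncertain. Levels are given below in CPM, the counts of a gene per 1000000 counts of the library after scaling by the trimmed mean of M values (TMM).

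**Figure D1:**
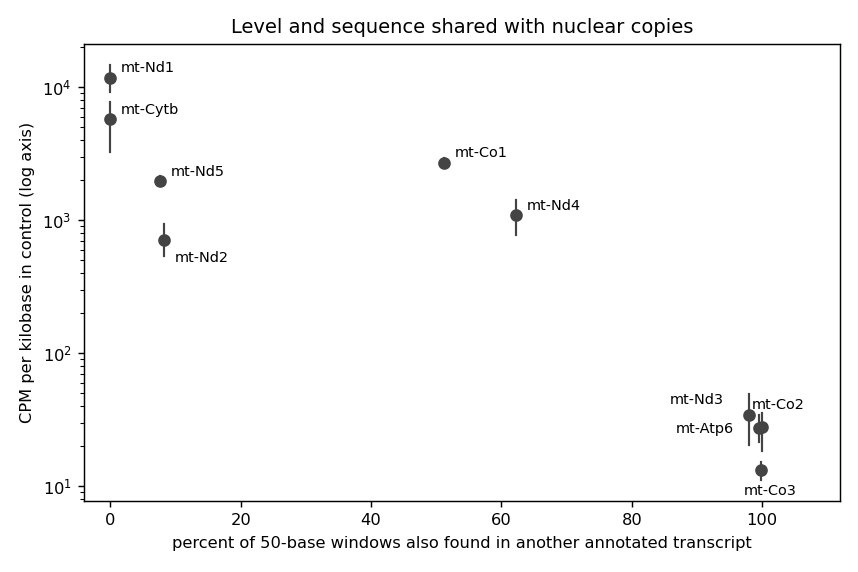
Level of each of the 10 transcripts in control (CPM per kilobase of gene, log axis; points are means of 3 libraries, bars run from the lowest to the highest library) against the percentage of its 50-base windows that occur in another annotated transcript. The 4 genes with 98.0% or more of their windows shared lie lowest, at 34.5 or less, and the other 6 lie between 709 and 11744.

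The libraries held between 562627 (L-2HG replicate 2) and 5731885 (control replicate 3) counts. The 10 transcripts took 3.05%, 2.21% and 2.67% of all counts in control replicates 1 to 3, with exact Clopper-Pearson 95% intervals of 3.03 to 3.06, 2.19 to 2.23 and 2.66 to 2.68. In D-2HG they took 1.75% (1.73 to 1.76), 1.85% (1.84 to 1.87) and 0.975% (0.962 to 0.987), and in L-2HG 1.80% (1.79 to 1.82), 1.16% (1.14 to 1.19) and 1.43% (1.41 to 1.45). Every library with a compound thus lay below every control library, with group means of 2.64% ± 0.418, 1.53% ± 0.480 and 1.47% ± 0.321 (SD, n = 3 each). The intervals cover counting error only, since amplified cDNA without molecular identifiers does not give independent molecules. In bulk RNA, fewer cells of a type and less RNA per cell cannot be told apart.

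Another share of the libraries moved with the groups. The satellite-derived genes Gm10800 and Gm10801 together took between 0.910% and 5.35% of counts in control, between 3.79% and 17.0% in D-2HG and between 6.71% and 24.4% in L-2HG. With them left out of the total, the 10 transcripts took 2.71% ± 0.377, 1.66% ± 0.420 and 1.68% ± 0.223 (SD, n = 3 each), and the groups still did not overlap. Counts on sensory receptor genes, which T cells are not known to use, ran from 305 to 977 CPM without TMM scaling in control, 980 to 1333 in D-2HG and 1450 to 3444 in L-2HG. The 6 CD8 T cell markers summed to between 2917 and 4805 CPM in control, 2419 and 2785 in D-2HG and 2189 and 3193 in L-2HG. Of those 6 markers, 4 were lower with D-2HG and 1 with L-2HG, where 10.5% and 8.30% of all genes tested were lower. None of the 6 was called without control replicate 1 or 3. The 5 B cell markers summed to 175 to 317, 134 to 135 and 134 to 195, in the same order. The 3 CD4 T cell markers summed to 5.82 to 11.4 in control, 12.6 to 15.8 in D-2HG and 11.8 to 15.7 in L-2HG, so that every control library lay below every treated one. Only 1 of these 3 had enough counts to be tested, and it was called with neither compound. Markers of the other lists stayed low, with 4.11 to 9.51 for the 5 macrophage or monocyte markers, at most 1.97 for the 4 neutrophil markers and at most 8.56 for the 4 erythroid markers. The 4 NK cell markers summed to between 8.69 and 23.7, and the 4 dendritic cell markers to between 14.5 and 23.2 in control, 22.7 and 38.8 in D-2HG and 23.7 and 31.4 in L-2HG. The part of any of these shares in the results below was not tested.

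Changes are log2 fold changes with standard errors from edgeR's quasi-likelihood test, with p-values adjusted over the 10235 genes tested. All 10 transcripts were among them, and mt-Co3 entered only through the control and L-2HG libraries, since 3 control, 0 D-2HG and 2 L-2HG libraries exceeded the filter level of 3.90 CPM. Both compounds were compared with the same 3 control libraries.

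Among the complex I transcripts, mt-Nd1 was the most abundant of all 10. Its level was 14085, 8779 and 10853 CPM in control, 7127, 7435 and 3763 under D-2HG and 7164, 6167 and 5729 under L-2HG. Both treated groups lay wholly below control, with a log2 change of -0.88 ± 0.26 (SE, adjusted p = 0.0245) for D-2HG and -0.82 ± 0.26 (adjusted p = 0.0381) for L-2HG. mt-Nd2 measured 974, 556 and 677 CPM in control, 320.3, 345 and 223 under D-2HG and 479, 263 and 330.1 under L-2HG. It fell by 1.31 on the log2 scale with D-2HG (adjusted p = 0.00312) and by 1.03 with L-2HG (adjusted p = 0.0155), again with no overlap with control.

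mt-Nd4, which shares its message with the short reading frame of mt-Nd4l, behaved alike in all treated libraries. It stood at 1939, 1067 and 1514 CPM in control, at 677, 781 and 627 under D-2HG and at 649, 608 and 561 under L-2HG. The 6 treated libraries spanned a narrower range than the 3 control libraries, all below them. The log2 change was -1.12 ± 0.22 with D-2HG (adjusted p = 0.00356) and -1.32 ± 0.22 with L-2HG (adjusted p = 0.00283), the smallest adjusted p of the 10 transcripts for L-2HG.

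mt-Nd5, the largest of the complex I messages, was lower in every treated library but did not pass the threshold. Its level was 3905, 3351 and 3438 CPM in control, 2809, 2755 and 1196 under D-2HG and 2652, 2037 and 2185 under L-2HG. The log2 change was -0.66 with a 95% interval from -1.21 to -0.12 for D-2HG (adjusted p = 0.0702) and -0.64 with an interval from -1.18 to -0.09 for L-2HG (adjusted p = 0.0858). mt-Nd3, a small subunit gene with a copy on chromosome 1, had 73, 24 and 39 counts in control, 14, 39 and 4 under D-2HG and 39, 2 and 5 under L-2HG. Its groups overlapped on the CPM scale, and its changes of -1.10 (adjusted p = 0.149) and -0.59 (adjusted p = 0.473) did not pass the test.

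mt-Cytb, the only complex III subunit encoded in mitochondria, showed the greatest change of the 6 transcripts with high counts. It measured 8904, 3697 and 7022 CPM in control, 1975, 2318 and 909 under D-2HG and 2280.4, 1038 and 2317 under L-2HG. Every treated library was below the lowest control library, although the control libraries themselves spread widely. The log2 change was -1.91 ± 0.40 for D-2HG (adjusted p = 0.00824) and -1.80 ± 0.40 for L-2HG (adjusted p = 0.0152). No window of mt-Cytb is shared with another annotated transcript.

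Complex IV contained the transcript that moved least. mt-Co1, the catalytic subunit, measured 4563, 3851 and 4139.9 CPM in control, 3964, 3854 and 3959 under D-2HG and 3631, 2786 and 2884 under L-2HG. The D-2HG libraries lay within the control range, with a log2 change of -0.09 and a 95% interval from -0.51 to 0.33 (adjusted p = 0.756). The L-2HG libraries lay below control, with a change of -0.43, an interval from -0.85 to -0.01 and an adjusted p of 0.124.

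The other subunits of complex IV rest on few counts. mt-Co2 measured 24.4, 12.6 and 19.7 CPM in control, 9.98, 11.6 and 9.48 under D-2HG and 11.3, 13.8 and 10.5 under L-2HG. It fell by 0.88 on the log2 scale with D-2HG (adjusted p = 0.0372), and its change of -0.76 with L-2HG, where the groups overlapped, did not pass (adjusted p = 0.0919). mt-Co3 had 50, 18 and 59 counts in control, 4, 15 and 7 under D-2HG and 21, 4 and 5 under L-2HG. Its change was -1.95 with D-2HG (adjusted p = 0.00904) and -0.90 with L-2HG (adjusted p = 0.158). Because mt-Co3 entered the test without a D-2HG library above the filter level, it had to be lower there, and its D-2HG call carries no weight of its own.

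mt-Atp6, the proton-channel subunit of the ATP synthase, overlaps mt-Atp8 at chrM:7927-7969 and has the copy Gm10925. It measured 23.2, 14.5 and 18.3 CPM in control, 7.57, 9.82 and 9.48 under D-2HG and 11.7, 7.90 and 4.76 under L-2HG. All treated libraries lay below control, and it fell by 1.07 on the log2 scale with D-2HG (adjusted p = 0.0250) and by 1.17 with L-2HG (adjusted p = 0.0325).

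**Figure D2:**
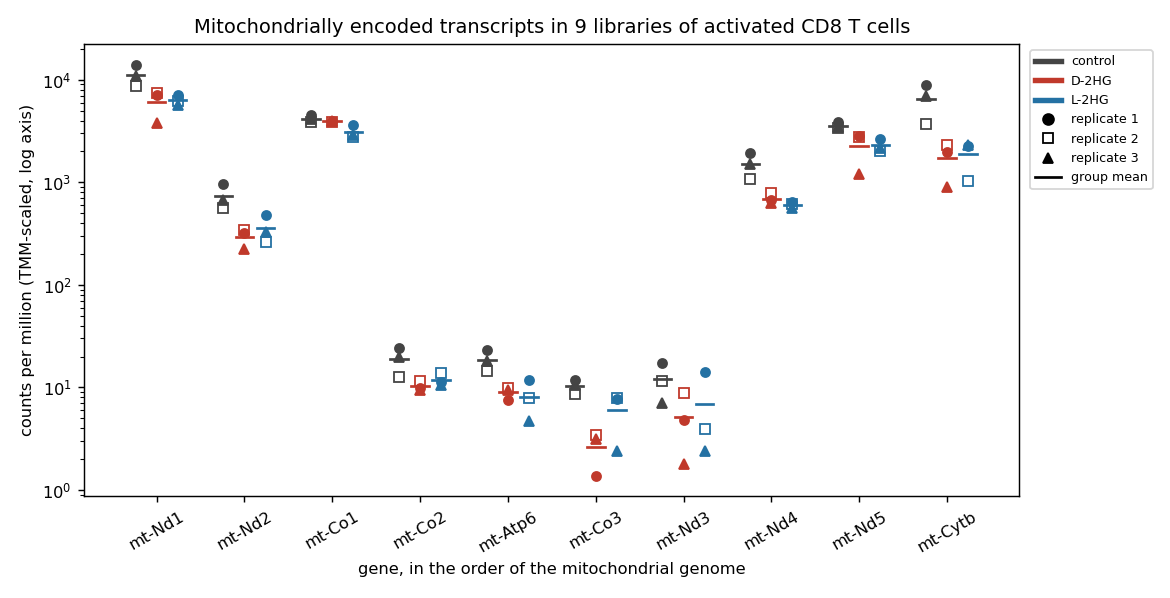
TMM-scaled CPM (log axis) of each of the 10 transcripts in the 9 libraries, in the order of the genes on the mitochondrial chromosome. Colours are groups, symbols are replicates and horizontal lines are group means; control replicate 2 is the lowest control library for 9 of the 10, and mt-Co1 with D-2HG overlaps control.

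With D-2HG, 7 of the 10 transcripts were lower past the threshold and 0 were higher, where 10.5% of all genes tested were lower and 11.8% higher. With L-2HG 5 were lower and 0 higher, where the background was 8.30% and 9.41%. CPM ranges did not overlap with control for 8 of the 10 with either compound, against 19.3% of all genes for D-2HG and 14.8% for L-2HG that were lower without overlap. The median log2 change of the 10 was -1.08 with D-2HG and -0.86 with L-2HG, against 0.04 and 0.05 over all genes tested. These counts include mt-Co3 with D-2HG.

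The calls depended on which library was left out. With control replicate 1 left out, the lower calls went from 7 to 2 with D-2HG and from 5 to 1 with L-2HG, and with control replicate 3 left out to 4 and 1. With D-2HG, leaving out D-2HG replicate 1 or 3 left 4 calls, and with L-2HG, leaving out L-2HG replicate 2 or 3 left 3. mt-Nd4 was called with both compounds, and mt-Nd2 with D-2HG, whichever single library was left out. mt-Cytb and mt-Co3 lost the D-2HG call without control replicate 1 (adjusted p from 2.43e-17 to 0.0549 and from 9.78e-05 to 0.0502 over all alternatives), and mt-Cytb and mt-Nd2 lost the L-2HG call without control replicate 1 or 3 (up to 0.0794 and 0.0799).

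mt-Nd1, mt-Atp6 and mt-Co2 were the least firm of the called transcripts. mt-Nd1 lost the D-2HG call without control replicate 1 or 3 or D-2HG replicate 1 or 3 (adjusted p from 5.89e-05 to 0.152 over all alternatives). It lost the L-2HG call without control replicate 1 or 3, D-2HG replicate 1 or any L-2HG replicate (1.80e-06 to 0.147). mt-Atp6 lost its calls without control replicate 1 or 3, without any D-2HG replicate for D-2HG (0.000531 to 0.139), and without L-2HG replicate 2 or 3 for L-2HG (0.00218 to 0.132). mt-Co2 lost its D-2HG call without control replicate 1 or 3, any of the D-2HG replicates, or L-2HG replicate 1 (0.00108 to 0.198). Without control replicate 2, mt-Co1 and mt-Co2 passed the L-2HG threshold with log2 changes of -0.52 and -0.98, and mt-Nd5 passed it without D-2HG replicate 3, at -0.66.

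Leaving out the library with the highest satellite share of each group, an alternative chosen after seeing the data, gave 8 lower calls with D-2HG and 9 with L-2HG. Those libraries were control replicate 2, D-2HG replicate 3 and L-2HG replicate 2. This left 2 libraries in each group.

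**Figure D3:**
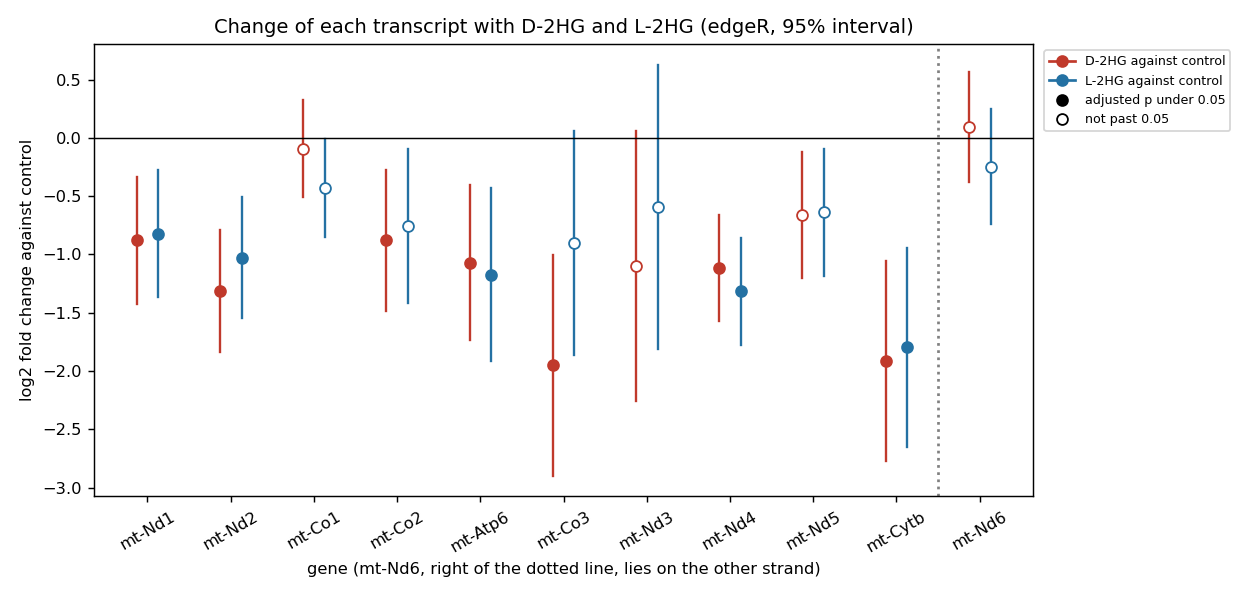
Log2 fold change against control of each transcript with D-2HG (red) and L-2HG (blue), with 95% intervals from edgeR; filled points passed the adjusted p threshold of 0.05. mt-Nd6, right of the dotted line, lies on the other strand, with changes of 0.09 with D-2HG and -0.25 with L-2HG that did not pass. mt-Co1 stayed near 0 with D-2HG.

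The control libraries themselves differed. In control replicate 2, which has the highest satellite share of its group, 9 of the 10 transcripts were lower than the mean log2 CPM of control replicates 1 and 3, with a median difference of -0.50. The difference was -1.10 for mt-Cytb, -0.68 for mt-Nd4 and -0.55 for mt-Nd2, but -0.17 for mt-Co1 and -0.13 for mt-Nd5.

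The enantiomers were compared with each other at the same dose of 20 mM and the same time of 6 h. By edgeR's test, 0 of the 10 transcripts differed past the threshold, 0 had an unadjusted p under 0.05, and 0 were called under any alternative run. Over all genes 31 passed (0.303%) and 713 had an unadjusted p under 0.05. The intervals leave room for differences of some size. The log2 difference of D-2HG from L-2HG was -0.06 (interval -0.60 to 0.48) for mt-Nd1, -0.12 (-0.95 to 0.71) for mt-Cytb, 0.20 (-0.25 to 0.65) for mt-Nd4 and -0.28 (-0.80 to 0.23) for mt-Nd2. mt-Co1 was the only one of the 10 whose ranges did not overlap, being higher in every D-2HG library than in every L-2HG library, with a difference of 0.34 (interval -0.08 to 0.76, adjusted p = 0.798). Ranges that did not overlap and were higher with D-2HG were found for 7.77% of all genes.

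The make-up of the mitochondrial messages was examined on a scale that does not depend on the depth of the nuclear counts, as the share of each transcript among the counts of the 10. The share of mt-Cytb was 25.8%, 17.3% and 25.4% in control, 11.7%, 13.2% and 8.50% under D-2HG and 13.5%, 8.03% and 16.5% under L-2HG. The share of mt-Co1 was 13.2%, 18.0% and 14.9% in control, 23.5%, 22.0% and 37.0% under D-2HG and 21.5%, 21.5% and 20.6% under L-2HG. The exact 95% half-width of these shares was at most 1.00 percentage points, in L-2HG replicate 2. mt-Cytb took a smaller share, and mt-Co1 a larger one, in every treated library than in any control library.

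The group means of mt-Cytb were 22.8% ± 4.79, 11.1% ± 2.41 and 12.7% ± 4.30, and those of mt-Co1 were 15.4% ± 2.43, 27.5% ± 8.27 and 21.2% ± 0.550 (SD, n = 3; control, D-2HG, L-2HG). Each of these differences from control reached p = 0.1 by the exact two-sided permutation test, which is the smallest that 3 against 3 libraries allow, and over the 30 such tests the smallest adjusted p was 0.375. By contrast the share of mt-Nd1 hardly moved, at 40.4% ± 1.06 in control, 39.9% ± 4.13 under D-2HG and 43.6% ± 3.59 under L-2HG. The share of mt-Nd2 was lower without overlap with D-2HG (1.98% ± 0.095 against 2.62% ± 0.193), and that of mt-Nd4 with L-2HG (4.18% ± 0.460 against 5.36% ± 0.327).

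The ratio of mt-Cytb to mt-Co1 counts is drawn from the same counts as these shares and restates the shift. It was 1.95, 0.960 and 1.70 in control, 0.498, 0.602 and 0.230 under D-2HG and 0.628, 0.373 and 0.803 under L-2HG. Control libraries held on average 1.54 ± 0.515 counts of mt-Cytb for each count of mt-Co1, against 0.443 ± 0.192 under D-2HG and 0.601 ± 0.217 under L-2HG (SD, n = 3). Each compound lay below control without overlap (exact permutation p = 0.1, the smallest possible; adjusted p = 0.15 over 27 ratio tests). mt-Co1 was taken as the reference because it moved least, so the ratios to it are a description. Relative to mt-Co1, 8 of the other 9 transcripts were lower without overlap with D-2HG, all but mt-Nd3, where 18.2% of all genes tested were. The 8 include mt-Co3, which had to be lower with D-2HG. With L-2HG 6 of 9 were lower without overlap, where 2.46% of all genes were. mt-Co1 itself was lower in every L-2HG library than in control (log2 change -0.43), which raises the ratio of every gene to it. On the CPM scale 14.8% of all genes were lower without overlap with L-2HG. The shares of all genes given for the ratios thus depend on the reference. Between the compounds, 4 of the 9 ratios were lower with D-2HG without overlap, where 23.3% of all genes were. The control library closest to the treated ones, replicate 2, is the one with the highest satellite share of its group.

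**Figure D4:**
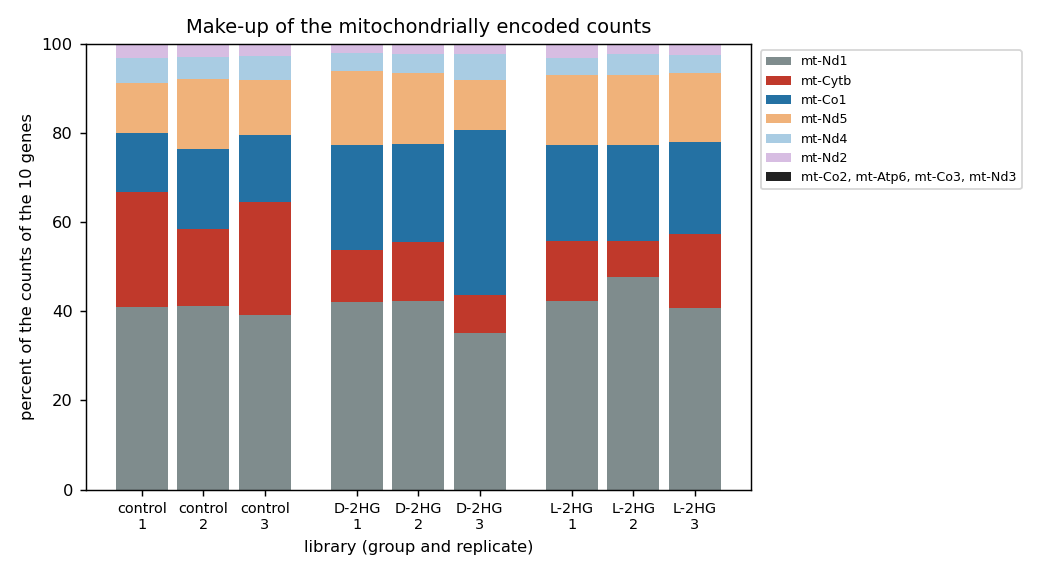
Share of each transcript in the summed counts of the 10, in percent, for each library. mt-Cytb (red) takes between 17.3% and 25.8% in control and at most 16.5% in the treated libraries, while mt-Co1 (dark blue) takes at most 18.0% in control and at least 20.6% in the treated libraries; mt-Co2, mt-Atp6, mt-Co3 and mt-Nd3 are too thin to see.

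Levels per kilobase of gene (CPM per kilobase) rank the transcripts by their deposited counts. The share of 50-base windows found in other transcripts differs between them, at 51.1% for mt-Co1 and 62.2% for mt-Nd4, with none for mt-Cytb. Its part in the order was not tested, so the order need not be that of the RNA levels. In control the order was mt-Nd1 (11744 ± 2794), mt-Cytb (5718 ± 2305), mt-Co1 (2708 ± 232), mt-Nd5 (1954 ± 163), mt-Nd4 (1093 ± 316) and mt-Nd2 (709 ± 207; SD, n = 3). Of these neighbours only mt-Nd4 and mt-Nd2 overlapped in range. Below them came mt-Nd3 at 34.5, mt-Co2 at 27.6, mt-Atp6 at 27.4 and mt-Co3 at 13.3 CPM per kilobase, of which mt-Nd3, mt-Co2 and mt-Atp6 overlapped. mt-Atp6 and mt-Co3 are neighbours on the same strand as mt-Co1, yet were listed at levels far below it.

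With either compound mt-Co1 moved ahead of mt-Cytb in this order. With D-2HG mt-Co1 stood at 2541 ± 40.2 and mt-Cytb at 1516 ± 642 CPM per kilobase, without overlap, and mt-Cytb overlapped mt-Nd5 (1235 ± 502). With L-2HG mt-Co1 stood at 2007 ± 299 and mt-Cytb at 1642 ± 636, and these overlapped. mt-Nd1 remained first in every group, at 6383 ± 2129 under D-2HG and 6639 ± 768 under L-2HG.

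The only protein-coding gene on the other strand is mt-Nd6, a further complex I subunit at chrM:13552-14070, which is known from human cells to have little or no poly(A) tail. It measured 118, 111 and 119 CPM in control, 107, 133 and 132 under D-2HG and 110.4, 130.3 and 60.9 under L-2HG. Its log2 change was 0.09 (interval -0.38 to 0.57, adjusted p = 0.783) with D-2HG and -0.25 (interval -0.74 to 0.25, adjusted p = 0.454) with L-2HG. The groups overlapped with both compounds. Without the library of highest satellite share in each group, mt-Nd6 was called lower with L-2HG (adjusted p = 0.0420 by edgeR's test). The library type does not mark strand, so RNA of mt-Nd6 cannot be told apart from the opposite strand of the mt-Nd5 precursor. mt-Nd4l, with 17 counts over 9 libraries, and mt-Atp8, with 24, were too low to be tested.

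The nuclear genes that serve mitochondrial transcription were examined as a list of 11, of which 10 were tested. With D-2HG 1 was higher and 1 lower, and with L-2HG 0 were higher and 2 lower, with list medians of -0.50 and -0.68. Over all genes tested, 10.5% were lower and 11.8% higher under D-2HG, and 8.30% and 9.41% under L-2HG, and nothing is read from the number of calls in this list. With D-2HG, Tfb1m, a methyltransferase of the mitochondrial ribosomal RNA, fell by 1.10 (adjusted p = 0.0318), while Polrmt, the RNA polymerase itself, rose by 0.70 (57.2 ± 18.1 to 91.5 ± 21.0 CPM, adjusted p = 0.0400). With L-2HG, Tefm, the elongation factor, fell by 0.85 (adjusted p = 0.0460) and Mrpl12, a ribosomal protein that binds the polymerase, fell by 0.83 (adjusted p = 0.0470). Tfam, which packages mitochondrial DNA and starts transcription, showed -0.38 and -0.52 and did not pass (adjusted p = 0.207 and 0.105). Mrpl12 with D-2HG (-0.71, adjusted p = 0.0680) and Mterf3, a negative regulator of mitochondrial transcription, with L-2HG (-0.56, adjusted p = 0.0645) did not pass either. Over the 9 fits that each left out 1 library, the lower calls ran from 0 to 6 with D-2HG and from 0 to 5 with L-2HG. None of the list was called without control replicate 1 or 3 or D-2HG replicate 1, and most were without control replicate 2.

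Of 24 genes of mitochondrial RNA processing and stability tested, 2 were higher and 6 lower with D-2HG, where 11.8% of all genes were higher and 10.5% lower. With L-2HG 1 was higher and 1 lower, where the background was 9.41% and 8.30%, so both shares lay below it (medians -0.17 and -0.26). The genes are therefore described singly. Lrpprc, an RNA-binding protein known to stabilise polyadenylated mitochondrial messages together with SLIRP, rose by 1.78 with D-2HG, from 76.0 ± 44.2 to 257 ± 22.1 CPM (SD, n = 3 each, adjusted p = 0.00902). With L-2HG Lrpprc stood at 152 ± 66.8 CPM, a change of 1.00 that did not pass (adjusted p = 0.0785). Its partner Slirp fell by 0.82 with D-2HG (adjusted p = 0.0244) and measured -0.25 with L-2HG (adjusted p = 0.477). Rexo2, a mitochondrial nuclease for very short RNAs, fell by 0.66 with D-2HG (adjusted p = 0.0254). With L-2HG, Fastkd5, known from human cells to process messages that lack flanking transfer RNAs, rose by 0.93 (adjusted p = 0.0419), and Trmt5, a transfer RNA methyltransferase, fell by 0.71 (adjusted p = 0.0463). Fastkd2, an RNA-binding protein of the mitochondrial ribosome assembly, had a change of -0.58 with L-2HG that just missed the threshold (adjusted p = 0.0500). With 1 library left out, 0 to 4 genes were higher and 0 to 10 lower with D-2HG, and 0 to 3 higher and 0 to 8 lower with L-2HG. None was called without control replicate 1, and the highest counts came without control replicate 2.

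Of 15 genes tested that maintain mitochondrial DNA, 2 were higher and 5 lower with D-2HG, where 11.8% of all genes were higher and 10.5% lower. With L-2HG 1 was higher and 2 lower, near the background of 9.41% and 8.30%. Dguok, a mitochondrial nucleoside kinase, fell by 1.04 (adjusted p = 0.0123) and Ssbp1, the single-strand binding protein, fell by 0.76 (adjusted p = 0.0182) with D-2HG. Slc25a36, a pyrimidine nucleotide carrier, rose by 1.14 with D-2HG (adjusted p = 0.0161) and by 1.04 with L-2HG (adjusted p = 0.0322). With L-2HG, Rnaseh1, which removes RNA from DNA hybrids, fell by 0.75 (adjusted p = 0.0357) and Top1mt, the mitochondrial topoisomerase, fell by 0.80 (adjusted p = 0.0387). Of the 11 regulators of mitochondrial biogenesis tested, 1 was higher with D-2HG, the coactivator Pprc1 with a rise of 0.77 (adjusted p = 0.0381), and 0 passed with L-2HG by edgeR's test. Gabpa, an activator of respiratory chain genes, measured 0.66 with D-2HG (adjusted p = 0.0671), Yy1 0.63 with L-2HG (adjusted p = 0.0619) and the coactivator Ppargc1b 0.62 and 0.79 (adjusted p = 0.186 and 0.121). With 1 library left out, the maintenance calls ran from 0 to 4 higher and 0 to 5 lower with D-2HG and from 0 to 3 in each direction with L-2HG. None of either list was called without control replicate 1.

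The lists of translation factors and quality control genes of the organelle were short, with 14 and 13 genes tested, and 0 were higher with either compound. Of 14 translation factors, 3 were lower with D-2HG (background 10.5%), namely Mrrf, which recycles mitochondrial ribosomes (-1.01, adjusted p = 0.0161), Oxa1l, the insertase for newly made subunits (-0.74, adjusted p = 0.0330), and C1qbp (-0.62, adjusted p = 0.0484). With L-2HG 2 were lower (background 8.30%), Mrrf (-0.84, adjusted p = 0.0458) and C1qbp (-0.66, adjusted p = 0.0460), while Tsfm, an elongation factor, measured -0.68 and did not pass (adjusted p = 0.0674). Of 13 proteostasis genes, 1 was lower with D-2HG, a share below the background, namely the inner-membrane scaffold Phb (-0.70, adjusted p = 0.0249). Phb2 and the protease Clpp measured -0.55 and -0.54 with D-2HG and did not pass (adjusted p = 0.0644 and 0.0663). In this list 4 were lower with L-2HG (background 8.30%). Among them were the chaperonin Hspd1 (-0.76, adjusted p = 0.0155), Phb (-0.82, adjusted p = 0.0195) and its partner Phb2 (-0.67, adjusted p = 0.0400). With 1 library left out, 0 to 5 translation factors were lower with each compound and 0 to 6 proteostasis genes. No translation factor was called without control replicate 1 or 3, and no proteostasis gene without control replicate 3.

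The nuclear-encoded partners of the mitochondrial subunits moved the same way as most of the 10 transcripts. Of 36 nuclear complex I subunits tested, 24 were lower with D-2HG and 10 with L-2HG, with 0 higher and medians of -0.75 and -0.64, where 10.5% and 8.30% of all genes tested were lower. Ndufs8, an iron-sulfur subunit of the complex, went from 222 ± 60.2 CPM in control to 115 ± 9.48 with D-2HG (-0.96, adjusted p = 0.00858) and 99.7 ± 23.3 with L-2HG (-1.12, adjusted p = 0.00852). Ndufs4 fell by 0.92 and 0.89 (adjusted p = 0.0105 and 0.0187), Ndufa7 fell by 1.07 with D-2HG (adjusted p = 0.00839) and Ndufb9 fell by 0.96 with L-2HG (adjusted p = 0.0197). For D-2HG the complex I calls were 0 without control replicate 1, 2 without control replicate 3, 7 without D-2HG replicate 1 or 2 and 4 without D-2HG replicate 3. For L-2HG they were 1 without control replicate 1, 0 without control replicate 3, 32 without control replicate 2, 2 without L-2HG replicate 1 or 2 and 17 without L-2HG replicate 3.

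In complex III, 6 of 9 nuclear subunits were lower with D-2HG and 3 with L-2HG, where 10.5% and 8.30% of all genes tested were. Uqcr10 was lower with both (-0.77 and -0.76, adjusted p = 0.0200 and 0.0276). With D-2HG Uqcrb (-0.74, adjusted p = 0.0242) and Cyc1, the cytochrome of the complex (-0.68, adjusted p = 0.0278), were lower. With L-2HG the core subunits Uqcrc1 (-0.84, adjusted p = 0.0220) and Uqcrc2 (-0.69, adjusted p = 0.0352) were lower. In complex IV, 5 of 11 were lower with D-2HG and 3 with L-2HG, against the same 10.5% and 8.30% of all genes. Cox5b, one of its nuclear subunits, went from 257 ± 62.9 CPM to 129 ± 2.54 with D-2HG (adjusted p = 0.00500) and 151 ± 22.6 with L-2HG (adjusted p = 0.0239). Cox5a was lower with both (-0.69 and -0.67, adjusted p = 0.0329 and 0.0454), Cox7b with D-2HG (-0.79, adjusted p = 0.0252) and Cox7c with L-2HG (-0.78, adjusted p = 0.0276).

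In complex V, 9 of 15 were lower with D-2HG and 6 with L-2HG, where 10.5% and 8.30% of all genes tested were. Atp5g1, a gene for the rotating ring to which the mt-Atp6 product is apposed, fell by 0.96 and 1.03 (adjusted p = 0.00618 and 0.00894). With D-2HG Atp5g3, another ring gene (-1.32, adjusted p = 0.00903), and Atp5k (-1.01, adjusted p = 0.00813) were lower. With L-2HG Atp5pb, of the peripheral stalk, fell by 0.76 (adjusted p = 0.0293) and Atp5b, the catalytic subunit, by 0.71 (adjusted p = 0.0331). Complex II has no mitochondrially encoded subunit, and 2 of its 4 genes were lower with each compound, against the same shares of all genes. These 2 were the membrane anchor Sdhc (-1.33 and -1.19, adjusted p = 0.00494 and 0.0152) and the iron-sulfur subunit Sdhb (-0.89 and -0.80, adjusted p = 0.0128 and 0.0255). Sdha with D-2HG (-0.43, adjusted p = 0.0860) and Sdhd with L-2HG (-0.66, adjusted p = 0.0823) did not pass. With 1 library left out, the lower calls with D-2HG ran from 0 to 9 in complex III, 1 to 11 in complex IV, 2 to 14 in complex V and 1 to 4 in complex II. With L-2HG they ran from 0 to 9, 0 to 10, 0 to 14 and 0 to 3. The lowest counts came without control replicate 1 or 3, and for several of these lists equally without a library of the treated group. The highest came without control replicate 2, and for complex IV with D-2HG equally without L-2HG replicate 2.

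**Figure D5:**
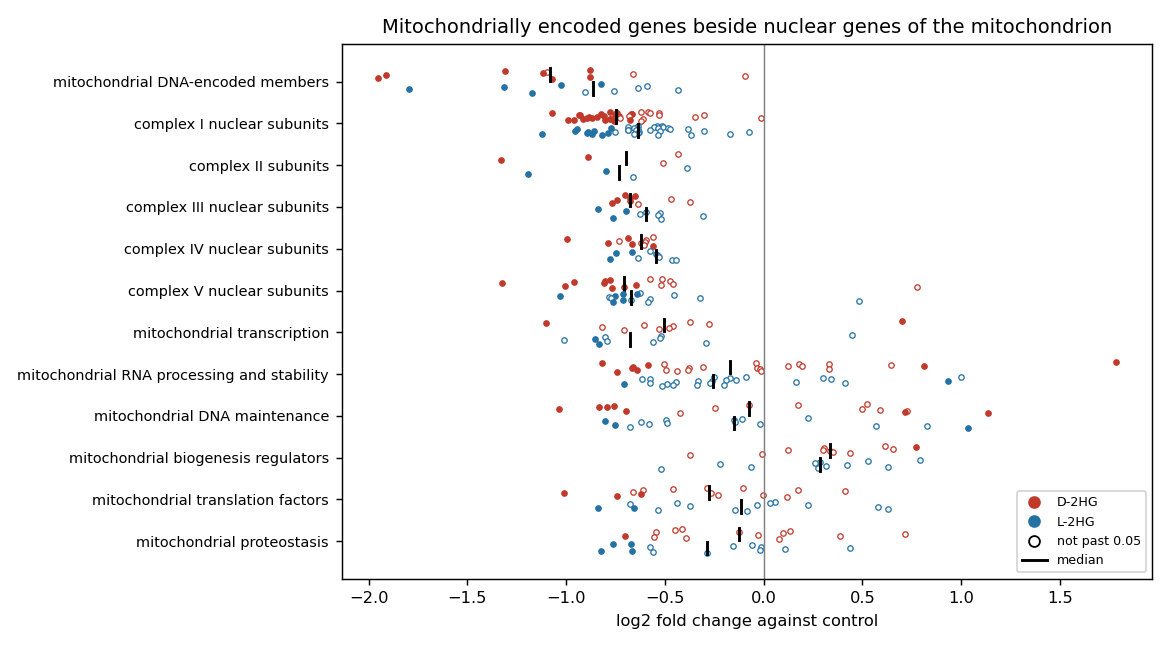
Log2 fold change against control of the genes in each list, with D-2HG in red and L-2HG in blue; filled points passed the adjusted p threshold of 0.05 and black bars are list medians. The 10 mitochondrially encoded transcripts have medians of -1.08 and -0.86, and the nuclear complex I subunits -0.75 and -0.64. The biogenesis regulators have medians of 0.34 and 0.29, with 2 and 3 of the 11 tested below 0.

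Of 3 RNAs tested that are known to be retained in the nucleus, 2 were higher and 0 lower with each compound, where 11.8% and 9.41% of all genes tested were higher. Neat1, a scaffold RNA of nuclear paraspeckles, rose by 0.90 with D-2HG and 0.97 with L-2HG (adjusted p = 0.0128 and 0.0152). Kcnq1ot1, a long imprinted RNA, rose by 0.91 and 0.75 (adjusted p = 0.0143 and 0.0383), while Malat1, another abundant nuclear RNA, measured -0.15 and 0.05 and did not pass (adjusted p = 0.623 and 0.888). Their part in the results above was not tested. None of them was called without control replicate 1 or 3, with D-2HG without D-2HG replicate 3, or with L-2HG without L-2HG replicate 1.

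The nuclear genes whose log2 CPM followed the mean of the 10 transcripts most closely over the 9 libraries were Fam174c and Crcp (Pearson r = 0.98 each), Rbis, Araf and Ptpn2 (0.97 each). These values are a description over libraries that share the group differences and the depth of each library. Fam174c stood at 52.8, 25.2 and 27.2 CPM in control, at 12.0, 15.8 and 5.87 under D-2HG and at 15.3, 9.87 and 10.9 under L-2HG. Ptpn2, a tyrosine phosphatase that restrains T cell receptor and cytokine signals, stood at 291, 192 and 236 CPM in control, 153, 165 and 136 under D-2HG and 162, 146 and 137 under L-2HG.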

How the data were processed

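The 9 libraries were made from polyadenylated RNA primed with oligo(dT), amplified and cut with Tn5 transposase, per the labels' protocols. STAR 2.7.3a, featureCounts and build mm10 are named in the submitters' processing notes. The authors deposited raw read counts per gene, and these counts were used as deposited, while the authors' normalized table was not used. Strand and multi-mapping settings are not given in the sources used here.

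Genes were filtered with filterByExpr (minimum count 10), scaled by TMM and tested in 1 model of 9 libraries with edgeR 4.0.16 (glmQLFit with robust estimation, glmQLFTest; R 4.3.3), with Benjamini-Hochberg adjustment over 10235 genes and a threshold of 0.05. The pipeline was tested on simulated data drawn with 1 common spread for all genes and libraries. That test does not show how the calls behave where libraries of a group differ as these do. Clopper-Pearson intervals came from scipy 1.17.1, and the exact permutation tests went through every split of the libraries compared. Windows of 50 and 75 bases were compared with the GENCODE M21 transcripts of mm10. Per library, depth ran from 562627 to 5731885 counts, so that transcripts with few counts are the least precise.

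The transcripts, the gene lists and the tests were chosen with earlier results of these data known. The text names all 10 transcripts and the other mitochondrial protein-coding genes, the 3 genes with the smallest adjusted p of each pathway list and compound, and the 5 nuclear genes most like the mean of the 10. Alternatives covered the test (DESeq2 1.42.0, limma 3.58.1 with voom), scaling, filters, the samples fitted, a replicate block and leaving out each library.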

Additional observations from a re-analysis of the deposited data

How the results depend on the processing

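The count of genes past the threshold was 2278 for D-2HG, 1812 for L-2HG and 31 between the compounds. It was 49 between the compounds with DESeq2, 5617, 5180 and 177 with limma-voom, 1341 for D-2HG without a filter on low counts, 1195 for L-2HG with a mean count of at least 50, and 427 for L-2HG when the control and L-2HG libraries were fitted alone. Without the library of highest satellite share in each group, chosen after seeing the data, it was 4493, 4379 and 165. Leaving out 1 library at a time gave 384 (without control replicate 3) to 4257 (without control replicate 2) for D-2HG, 65 to 4108 for L-2HG with the same libraries, and 10 to 60 between the compounds. Of the 10 transcripts, between 2 and 7 were lower with D-2HG and between 1 and 7 with L-2HG over these 9 fits, and 0 were higher. With a mean count of at least 50, 4 of the 6 left were lower with D-2HG and 3 with L-2HG. The L-2HG count was also 3 without TMM and with only the compared groups fitted, and 9 without the libraries of highest satellite share.

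Without TMM, mt-Nd1 lost its call with both compounds, mt-Co2 with D-2HG and mt-Atp6 with L-2HG. mt-Co2 also lost its D-2HG call with DESeq2, without a filter and under the replicate block, and mt-Nd1 and mt-Atp6 their L-2HG calls when only the compared groups were fitted, as did mt-Nd1 with a mean count of at least 50. Without TMM, 70.0% of D-2HG calls and 77.7% of L-2HG calls were higher, against 52.9% and 53.1% as reported; with DESeq2 the shares were 40.9% and 31.7%. The cause was not tested. The 10 transcripts kept a negative log2 change against control under each alternative with D-2HG, and so did all but mt-Nd3 with L-2HG (0.22 with limma-voom, adjusted p = 0.756).

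Whether the replicate numbers mark a shared animal or batch is not given in the sources used here. Correlations of deviations between same-numbered libraries ran from -0.17 to 0.28, and 2 of 9 exceeded 0.1. With 3 libraries in each group they cannot decide whether the samples are paired. With the replicate block the counts were 2314, 2284 and 35 genes, and 8 and 6 of the 10 transcripts were lower. Low counts limit mt-Co2, mt-Atp6, mt-Nd3 and mt-Co3. Summing their counts with those of the pseudogenes, also chosen after seeing the data, gave 7 lower calls with each compound.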

Other observations

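The 22 mitochondrial transfer RNA genes, which are not polyadenylated as mature molecules, received few counts. They summed to 270, 179 and 286 in control, 179, 289 and 121 under D-2HG and 234, 53 and 189 under L-2HG. Their share of all mitochondrial counts was 0.185%, 0.403% and 0.186% in control, 0.361%, 0.372% and 0.502% under D-2HG and 0.50%, 0.795% and 0.634% under L-2HG. mt-Tl1, which lies between the 16S ribosomal RNA gene and mt-Nd1, held 88, 107 and 148 of these counts in control, 119, 179 and 70 under D-2HG and 147, 34 and 87 under L-2HG. The share in L-2HG did not overlap with that in control, while the share in D-2HG did.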
